A study of Mus musculus with 36 samples.

Results

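In mouse embryonic stem cells, 3040 genomic sites had an MBD3 peak on days 0, 4 and 6, no MBD3 peak on day 2, and a CTCF peak on at least 1 of the 4 days. They were chosen by joining the MBD3 peaks of the 4 days wherever these overlapped by 1 bp or more, on chromosomes 1 to 19, X and Y. They make up 19.2% of the 15860 joined MBD3 sites that overlapped a CTCF peak, out of 18378 joined MBD3 sites in all. The peaks come from chromatin immunoprecipitation with sequencing (ChIP-seq). The 36 samples are MBD3 antibody, CTCF antibody and input chromatin on days 0, 2, 4 and 6, with 3 replicates in each of the 12 groups. All are of 1 cell line, labelled mESC and marked WT in the peak names, kept in medium with leukaemia inhibitory factor and KnockOut Serum Replacement on irradiated mouse embryonic fibroblasts. The labels give no treatment that tells the days apart, and how much feeder chromatin the samples held was not measured. Each of the 8 peak lists was called on replicates 1 to 3 together. There is thus no spread between replicates and no p-value for any difference between days, and intervals below cover counting error only.

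MBD3 belongs to NuRD, a complex that joins a nucleosome remodelling ATPase to histone deacetylases. Unlike its relative MBD2, mammalian MBD3 binds methylated CpG poorly, and in embryonic stem cells NuRD is needed for the cells to leave self-renewal properly. CTCF is a zinc finger protein that binds a long motif, halts cohesin at the anchors of chromatin loops and acts at insulators, and methylation of CpGs in its motif can block its binding.

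The absence of the MBD3 peak on day 2 is what chose these sites, so it is not a finding in itself. Sites missing on another single day were fewer among the MBD3 sites at CTCF: 47 lacked a peak on day 0 alone, 34 on day 4 alone and 33 on day 6 alone. The day 2 MBD3 list was also the shortest, with 1991 peaks, where days 0, 4 and 6 had 10464, 9006 and 10875. With every MBD3 list held to its 1991 peaks of highest -log10 q, and every CTCF list to 28137, the sites missing on day 2 alone numbered 295, against 29, 24 and 49 missing on day 0, 4 or 6 alone. In that setting there were 3382 MBD3 sites at CTCF, and the 519 with MBD3 on all 4 days outnumbered the 295. A set of 742 sites at CTCF with an MBD3 peak on all 4 days serves for comparison and is called the all-day sites.

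Some of these sites lay at transcription starts, where sequence could be read from RefSeq windows (GRCm38.p6, the assembly of mm10) that run from 250 bases before to 50 bases after a start. The 5 stretches below come from the 8 sites with the highest day 0 MBD3 fold in such windows, and are shown for where the CTCF core motif falls under the peak. The letters searched were CC, any 3 bases, AG, any 2 bases and GGC. Capitals mark the motif, which was searched on both strands, and each stretch is written along the strand of its gene. The stretch at Zfp398, a zinc finger protein gene, is chr6:47835557-47835648 on the plus strand, and the centre of the motif shown, 1 of 2 matches in its window, lay 12 bp from the day 0 MBD3 summit. At Rplp0, which encodes a protein of the large ribosomal subunit, it is chr5:115559250-115559341 on the plus strand, with 26 bp between motif and summit. At Gm39360, annotated as a long noncoding RNA, it is chr9:64100612-64100703 on the minus strand, with 10 bp between them. The window of Slc6a19, a neutral amino acid transporter gene, and that of Ago1, an Argonaute gene of RNA silencing, held no match. Their stretches, chr13:73692660-73692751 and chr4:126468687-126468778, both on the minus strand, are centred on the MBD3 summit instead. The windows of Amz2 and Gm32213, also among the 8 sites, held no match either, and their stretches are not printed.
Zfp398: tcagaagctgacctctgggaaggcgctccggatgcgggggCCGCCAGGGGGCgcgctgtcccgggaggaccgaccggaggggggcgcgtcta
Rplp0: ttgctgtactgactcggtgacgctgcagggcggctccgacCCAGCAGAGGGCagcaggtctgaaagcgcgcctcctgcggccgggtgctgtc
Gm39360: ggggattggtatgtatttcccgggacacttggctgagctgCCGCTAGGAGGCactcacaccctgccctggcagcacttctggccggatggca
Slc6a19: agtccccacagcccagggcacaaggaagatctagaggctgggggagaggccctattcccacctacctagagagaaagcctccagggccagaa
Ago1: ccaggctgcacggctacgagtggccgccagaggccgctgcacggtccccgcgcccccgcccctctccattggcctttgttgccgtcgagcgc

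The printed stretches differ widely in CpG content, with 11 CpGs at Zfp398, 8 at Rplp0, 3 at Gm39360, 0 at Slc6a19 and 11 at Ago1. Over all windows that held the day 0 MBD3 summit of such a site, 164 of 330 (49.7%, exact 95% interval 44.2 to 55.2) had a motif match. Among windows at all-day sites 45 of 79 (57.0%, 45.3 to 68.1) had a match, and among windows at CTCF sites of all 4 days without MBD3 79 of 201 (39.3%, 32.5 to 46.4). The share over all 32817 windows was 8.61%. In the 164 windows with a match, the motif centre lay at a median of 22 bp from the MBD3 summit, and 81 of the 164 matches (49.4%) held a CpG. At all-day sites the median was 22 bp as well, and 20 of the 45 matches (44.4%) held a CpG. The median number of CpGs per window was 23 at sites missing on day 2, 25 at all-day sites, 16 at CTCF sites without MBD3 and 7 over all windows.

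On the days that they had a peak, the sites missing on day 2 had MBD3 near the median strength of the full MBD3 lists. Strength was measured by the fold enrichment that the authors give for each peak, which sets the fragments over the summit against the local background. The full lists had median folds of 4.07, 3.85 and 4.58 on days 0, 4 and 6, exceeded by 57.6%, 49.5% and 42.6% of the sites. At the sites missing on day 2 the median fold was 4.27 on day 0 (95% interval of the median 4.21 to 4.32), 3.84 on day 4 (3.80 to 3.89) and 4.32 on day 6 (4.27 to 4.38). The lowest folds were 1.58, 1.58 and 1.64 on those days and the highest 15.0, 16.0 and 17.5. Behind the day 0 median stood a median of 40 fragments per summit (30 to 52 between quartiles). All-day sites had medians of 8.07, 7.21 and 8.39 on days 0, 4 and 6 and of 4.18 on day 2. Few of the sites missing on day 2 exceeded the all-day median, namely 88 (2.89%) on day 0, 62 (2.04%) on day 4 and 81 (2.66%) on day 6. The groups did overlap, since 112, 95 and 120 of the 742 all-day sites lay below the median of the sites missing on day 2 on days 0, 4 and 6. The highest of the 3 days was day 0 at 1185 sites, day 4 at 589 and day 6 at 1266, and the order of the sites was only loosely kept between days. Spearman's rho over the sites was 0.35 between days 0 and 4, 0.39 between days 0 and 6 and 0.42 between days 4 and 6, given as a description.

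**Figure D1:**
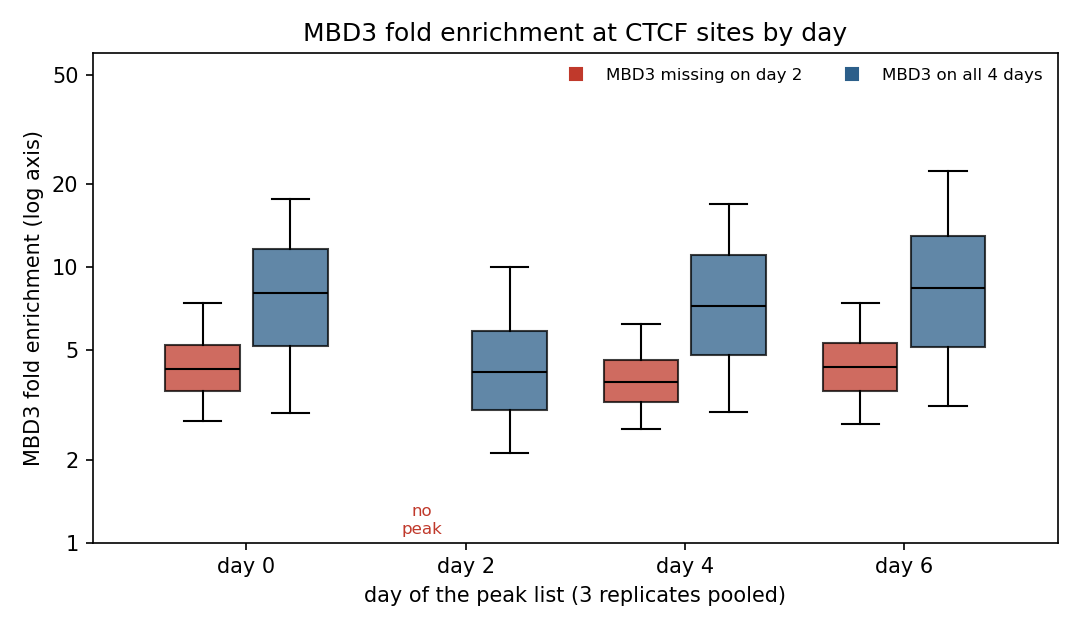
MBD3 fold enrichment (log axis) by day, at the 3040 sites missing on day 2 and at the 742 all-day sites, with boxes from the lower to the upper quartile and a line at the median. The medians of the sites missing on day 2 are 4.27, 3.84 and 4.32 on days 0, 4 and 6, below the 8.07, 7.21 and 8.39 of the all-day sites, which alone have a day 2 value, with a median of 4.18.

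The site with the highest day 0 MBD3 fold lay at chr3:86002476-86002819 (mm10), inside Sh3d19 and at an end of the serine protease gene Prss48. Its MBD3 fold was 15.0 on day 0, 5.29 on day 4 and 7.16 on day 6, and its CTCF fold was 35.2, 10.4, 18.6 and 21.7 on days 0, 2, 4 and 6. Day 0 was the highest of its days for both proteins, and CTCF kept a peak on day 2. The next, at chr17:5795897-5796253, lay between genes, 42005 bp from Zdhhc14, which encodes a palmitoyltransferase. Its MBD3 fold was 14.3, 7.93 and 16.4 on days 0, 4 and 6, and its CTCF fold on days 0, 2, 4 and 6 was 21.9, 9.90, 23.7 and 32.4. Here day 6 was the highest for both. The third, at chr3:20520776-20521077, was 153598 bp from Agtr1b, an angiotensin receptor gene, with MBD3 folds of 14.3, 9.94 and 13.6 and a day 2 CTCF fold of 15.3. The other 3 of the 6 strongest lay inside Tnni3k, a cardiac kinase gene, inside Npas1, a transcription factor gene, and inside Slc6a19. Their MBD3 folds on days 0, 4 and 6 were 13.8, 7.41 and 6.90 at Tnni3k, 13.5, 7.72 and 10.1 at Npas1, and 13.1, 3.74 and 7.05 at Slc6a19. All 6 had a CTCF peak on each of the 4 days, and day 2 had the lowest CTCF fold of the 4 in every one.

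How high MBD3 could have been on day 2 without being called was bounded site by site. The peak caller's fold and p give back the number of fragments and the background at each summit, and the day 2 MBD3 and CTCF peaks had backgrounds in a nearly constant ratio. At 181 pairs of day 2 summits within 2 bp, the MBD3 background was a median 0.819 times the CTCF background, near the ratio of 0.816 between the genome-wide levels of the 2 lists. The day 2 CTCF peak therefore gave the MBD3 background at 3013 of the 3040 sites, and the lowest -log10 p in the day 2 MBD3 list, 4.58, gave the largest fold that could go uncalled. That limit had a median of 2.03 (1.85 to 2.26 between quartiles), or 34 fragments, and ranged from 1.23 to 3.33. Of the all-day sites with such a limit, 711 of 712 had their day 2 MBD3 fold above it. That follows from their having a called day 2 peak, so it checks only the estimate of the background. A stretch of enrichment too short to be called can exceed the limit, which is therefore approximate.

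The limit was a median 0.480 times the day 0 fold (0.394 to 0.577 between quartiles), 0.533 times the day 4 fold and 0.473 times the day 6 fold. The fold was above the limit at 3008 of 3013 sites on day 0 (99.8%), at 3007 on day 4 and at 3013 on day 6, and on all 3 days at 3002. These counts were largely set by the choice of sites, which asked for called peaks on those days. The median background there was 8.46, 12.2 and 10.2 fragments, against 16.1 on day 2, and a higher background lowers the fold needed for a call. A fold of at least 2 times the limit was less common, with 1694 sites (56.2%) on day 0, 1210 (40.2%) on day 4 and 1762 (58.5%) on day 6. It held for all 3 days at 617 sites (20.5%). The all-day sites also had a lower MBD3 fold on day 2 than on day 0, with a median ratio of 0.517 (0.400 to 0.696 between quartiles), and 67 of the 742 had a ratio above 1. If the day 0 folds of the sites missing on day 2 are multiplied by 0.517, 1831 of 3013 (60.8%) still lie above their limit, and the other 1182 do not. The ratio of 0.517 comes from sites chosen for a day 2 peak, a choice that leaves out low ratios. The count therefore cannot tell how many sites fell by more than the all-day sites did.

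**Figure D2:**
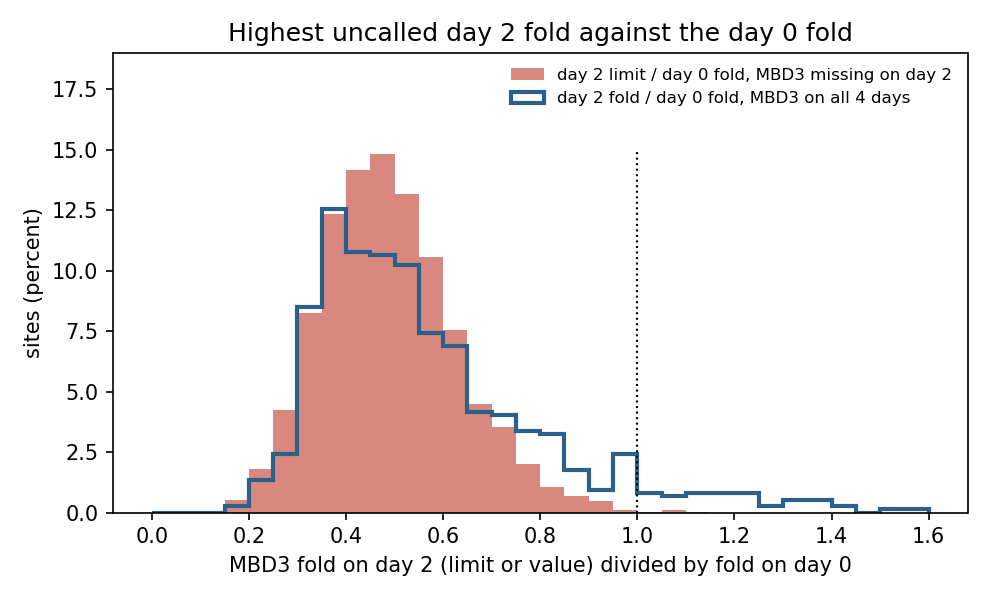
Histograms of the highest uncalled day 2 MBD3 fold over the day 0 fold, at 3013 sites missing on day 2, and of the measured day 2 over day 0 fold at 742 all-day sites, in percent of sites. The dotted line marks a ratio of 1. The medians are 0.480 and 0.517, and 24 all-day sites with a ratio above 1.6 are not drawn.

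The share of sites with an MBD3 peak on day 2 was highest among the strongest sites. Of the MBD3 sites at CTCF that had peaks on days 0, 4 and 6, 86.5% of the highest decile of day 0 MBD3 fold also had a day 2 peak, which leaves 51 sites of that decile missing on day 2. The share with a day 2 peak was 37.3% in decile 9, 17.2% in decile 8, 5.56% in decile 5, 5.03% in decile 2 and 11.3% in the lowest. Ranked by day 2 CTCF fold, it was 67.8% in the highest decile, 43.2% in decile 9 and 8.85% in decile 5. Both ranks use values of the joined sites and are a description.

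CTCF itself was present at nearly all of the sites on day 2. The rule asks for CTCF on any day, and 3038 of 3040 sites had a CTCF peak on day 0. Of the later days, day 2 had one at 3013 sites (99.1%, 98.7 to 99.4), day 4 at 3019 and day 6 at 3021. CTCF was found on all 4 days at 3011 (99.0%, 98.6 to 99.4). Among all-day sites, 716 of 742 (96.5%, 94.9 to 97.7) had a day 2 CTCF peak and 702 (94.6%) had one on each day. Over all MBD3 sites at CTCF, a day 2 CTCF peak was found at 90.6% and peaks on all 4 days at 88.8%.

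CTCF was strong at these sites within each list and was at its lowest fold on day 2. The median CTCF fold on days 0, 2, 4 and 6 was 14.0 (13.8 to 14.1), 6.66 (6.57 to 6.75), 13.7 (13.6 to 13.9) and 14.7 (14.5 to 14.9), against 6.67, 5.46, 8.56 and 8.92 over the full CTCF lists. On day 2 the folds ran from 1.44 to 20.0. All-day sites had higher medians, of 18.1, 10.1, 17.9 and 19.2, and the 11396 sites with CTCF on all 4 days and no MBD3 on any day had 7.76, 5.09, 8.44 and 8.86. Day 2 was the lowest CTCF day at 2929 of the 3011 sites missing MBD3 on day 2 that had CTCF on every day (97.3%), and at 623 of 702 such all-day sites (88.7%). The day 2 over day 0 ratio of CTCF fold had a median of 0.470 (0.464 to 0.478) at the sites missing on day 2, 0.542 at all-day sites and 0.654 at CTCF sites without MBD3. The classes differed in day 0 fold, which these ratios do not allow for. In decile 8 of day 0 CTCF fold, the day 2 medians were 6.53 at sites missing on day 2 and 6.27 without MBD3. They were 6.72 and 6.56 in decile 9, and 7.47 and 7.50 in the highest, so at like day 0 fold these 2 classes were close. The ratios were not tested.

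**Figure D3:**
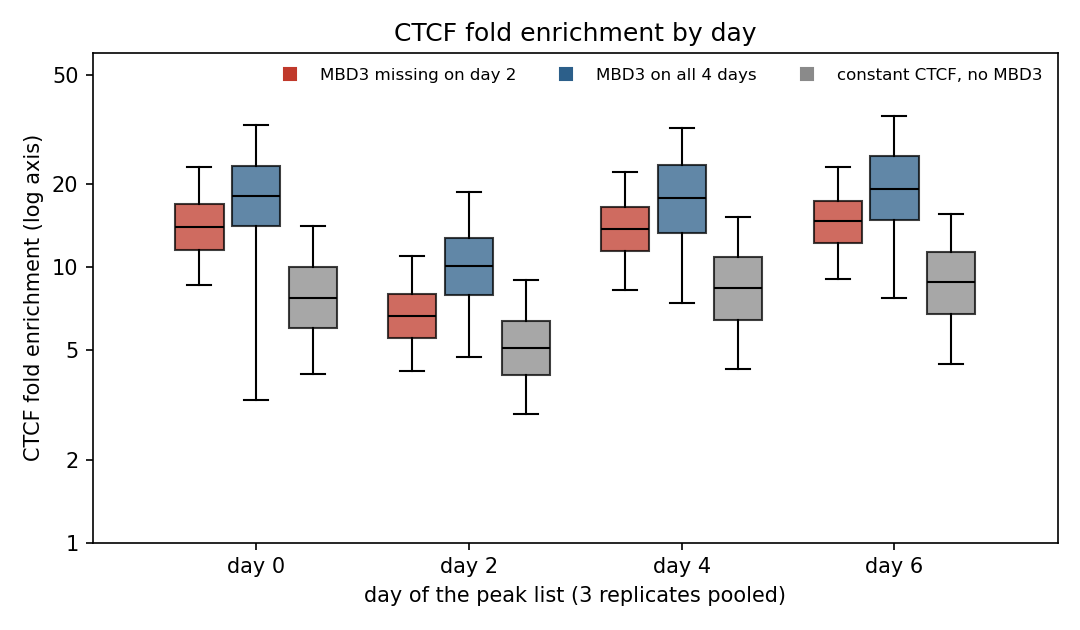
CTCF fold enrichment (log axis) on days 0, 2, 4 and 6 at sites missing MBD3 on day 2, at all-day sites and at sites with CTCF on all 4 days and no MBD3, with boxes between quartiles and a line at the median. Day 2 has the lowest median in each class, at 6.66, 10.1 and 5.09.

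The local background also differed between the classes and days. At the sites missing on day 2 it was a median 5.72, 7.38, 6.21 and 7.22 times the genome-wide level of the CTCF lists of days 0, 2, 4 and 6. At all-day sites it was 6.36, 7.22, 6.83 and 7.64 times that level, and at CTCF sites without MBD3 it was 2.54, 2.51, 2.48 and 2.64 times. A background over 10 times the genome-wide level was found at 937 (31.1%) of the sites missing on day 2 in the day 2 CTCF list and at 349 (11.5%) in that of day 0. Fragments at the CTCF summit were also divided by the genome-wide level in place of the local background, though the fragments still include those of the local background. The quotient had medians of 83.3, 49.1, 90.7 and 113 at the sites missing on day 2. The corresponding values were 114.6, 74.5, 125.7 and 154.3 at all-day sites, and 22.6, 14.6, 25.7 and 27.8 at CTCF sites without MBD3, so day 2 was lowest in each class on this scale too. The part of local background in the folds was not tested.

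**Figure D4:**
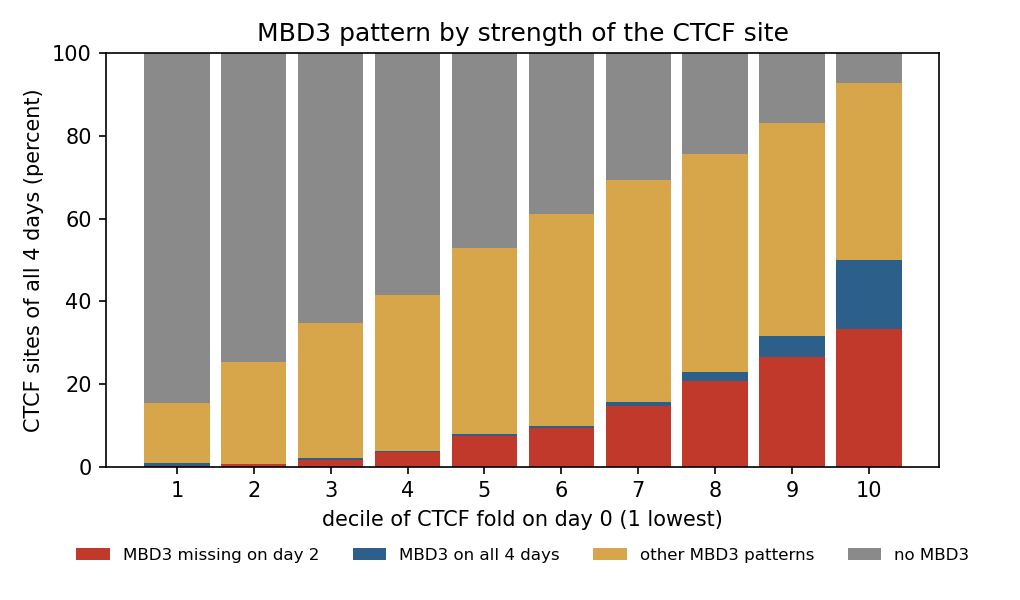
Share of the 25409 sites with CTCF on all 4 days that miss MBD3 on day 2 alone, have it on all 4 days, have another pattern, or never have it, by decile of day 0 CTCF fold (1 lowest). The share missing on day 2 is 0.118% in the lowest decile and 33.2% in the highest, and the share without MBD3 is 84.6% and 7.32%.

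Of the 25409 sites with CTCF on all 4 days, 2999 (11.8%) were missing MBD3 on day 2 alone, 702 (2.76%) had it on all days, 10312 had another MBD3 pattern and 11396 had none. The pattern missing on day 2 was nearly absent from the weakest decile of day 0 CTCF fold, at 0.118% or 3 sites, and made up 7.56% of decile 5, 20.7% of decile 8 and 33.2% of the highest. All-day MBD3 made up 0.826% of the weakest decile, where it had 21 sites, 0.472% of decile 5, 2.28% of decile 8 and 16.8% of the highest. In decile 8, where day 0 CTCF folds lie between 12.3 and 13.9, 526 sites missing on day 2 had median CTCF folds of 6.53, 13.7 and 14.5 on days 2, 4 and 6. The 58 all-day sites of that decile had 9.01, 14.3 and 16.4, and its 619 sites without MBD3 had 6.27, 10.6 and 11.2. In this decile the medians of the sites missing on day 2 were near those of the sites without MBD3 on day 2, and nearer to those of the all-day sites on days 4 and 6. In the highest decile the day 2 medians were 7.47 at sites missing on day 2, 11.2 at all-day sites and 7.50 at sites without MBD3, and the day 4 medians were 15.0, 20.7 and 12.6. There the sites missing on day 2 lay nearer to the sites without MBD3 on day 4 as well. The classes were set by MBD3 calls on these same days, and MBD3 and CTCF folds of a day share a background. Such nearness is thus not independent of the choice of sites.

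**Figure D5:**
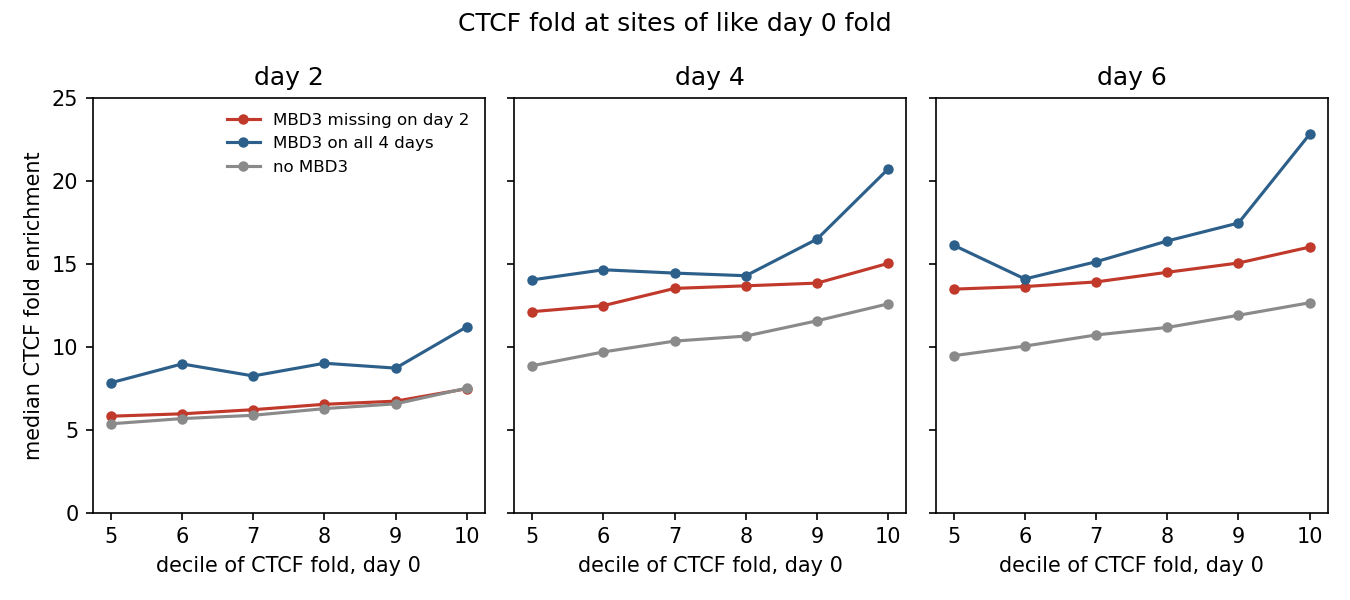
Median CTCF fold on days 2, 4 and 6 within deciles 5 to 10 of day 0 CTCF fold (10 highest), for sites missing MBD3 on day 2, all-day sites and sites without MBD3. In decile 8 the day 2 medians are 6.53, 9.01 and 6.27, and the day 6 medians 14.5, 16.4 and 11.2. Deciles 5 and 6 hold 12 and 14 all-day sites.

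The site of highest day 2 CTCF fold lay inside Fbxo3, a ubiquitin ligase subunit gene, at chr2:104034915-104035243. Its CTCF fold was 42.7, 20.0, 32.3 and 20.7 on days 0, 2, 4 and 6, its MBD3 fold was 9.18, 9.08 and 6.31 on days 0, 4 and 6, and its day 2 MBD3 limit was 3.21. The next lay inside Lmbr1, the gene whose intron holds the limb enhancer of Shh, at chr5:29293264-29293500. CTCF there was 24.0, 18.5, 37.4 and 30.4, and MBD3 was 8.78, 7.11 and 7.54 with a day 2 limit of 2.75. At chr3:127322914-127323176, inside the ankyrin gene Ank2, the day 2 CTCF fold of 18.2 was above the 17.1 of day 0, and MBD3 was 6.63, 7.76 and 9.30 with a limit of 3.21. At chr7:43333275-43333504, 17836 bp from the lectin gene Siglecf, CTCF was 13.7 on day 0 and 17.8 on day 2, and MBD3 was 4.27, 8.53 and 4.91 with a limit of 2.93. At each of these 4 sites the MBD3 folds of all 3 days were above the day 2 limit, as at nearly all sites chosen by this rule.

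At 27 sites no CTCF peak was found on day 2, and at 17 of them CTCF was found on day 0 only. Their MBD3 was weak, with median folds of 3.52, 2.83 and 2.36 on days 0, 4 and 6, and their median day 0 CTCF fold was 2.31. The strongest lay at chr6:113075958-113076654, on the noncoding gene of the Rosa26 locus, Gt(ROSA)26Sor, and 607 bp from Setd5. It had an MBD3 fold of 5.71 on both day 0 and day 4 and of 2.99 on day 6, and a CTCF fold of 3.95, 3.51 and 3.15 on those days. At Krt8, a keratin gene of simple epithelia, chr15:102004293-102004579 had MBD3 folds of 4.31, 3.40 and 5.04 and CTCF folds of 7.23, 7.18 and 8.32. Inside Opn3, an opsin gene, and Nt5c3b, a nucleotidase gene, CTCF was found on day 0 only, with folds of 1.83 and 2.31, beside day 0 MBD3 folds of 4.51 and 4.47.

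The weakest site that met the rule lay at chr18:3119534-3119951, with MBD3 -log10 q of 1.46, 8.52 and 1.31 on days 0, 4 and 6. The next, inside the phosphatase gene Ptp4a3, had 1.32, 5.87 and 13.0. Just outside the rule, a site inside Cfap77 had a day 2 MBD3 peak with a -log10 q of 1.30, a fold of 2.65 and 18 fragments.

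MBD3 and CTCF summits nearly coincided at the sites missing on day 2. The median distance was 10 bp on day 0, 10 bp on day 4 and 8 bp on day 6, and 95.7%, 97.0% and 97.9% of summits lay within 50 bp on those days. At all-day sites the median distance was 7, 8, 7 and 6 bp on days 0, 2, 4 and 6. The joined MBD3 interval had a median width of 283 bp at sites missing on day 2 and 372 bp at all-day sites. MBD3 and CTCF folds of the same day went together over the sites, with a Spearman's rho of 0.59 on day 0, 0.67 on day 4 and 0.70 on day 6. The folds of a day share a background, and no p is given for them. Carry-over of CTCF-bound chromatin or cross-reaction of the antibody was not tested.

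About as many of the sites missing on day 2 lay near gene ends as of the all-day sites, with intervals that overlap. Within 1 kb of either end of a protein-coding gene lay 678 of 3040 (22.3%, 20.8 to 23.8), against 179 of 742 all-day sites (24.1%, 21.1 to 27.4) and 17.0% of all MBD3 sites at CTCF. A further 982 (32.3%) lay inside a gene more than 1 kb from its ends, and 1380 (45.4%) outside genes and more than 1 kb away. The annotation used here gives the outer ends of genes, so exons and introns could not be told apart. The share near gene ends moved with the local background: it was 19.9% (18.4 to 21.4) at sites with a background up to 10 times the genome-wide level and 41.3% at those above. All-day sites had 18.7% and 46.2% in the same split, and all MBD3 sites at CTCF had 15.6% and 43.8%. These shares were not tested against each other.

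At promoters, the site of Zfp398 (chr6:47835439-47835789) had MBD3 folds of 11.4, 5.81 and 5.21 on days 0, 4 and 6 and a day 2 limit of 1.73. Its CTCF folds were 24.1, 6.13, 13.4 and 13.7 on days 0, 2, 4 and 6. The site of Rplp0 (chr5:115559191-115559599) had MBD3 folds of 9.87, 5.77 and 4.85 with a limit of 1.78, and CTCF folds of 19.4, 6.05, 13.8 and 13.8. Both were highest on day 0 and had their lowest CTCF fold on day 2. At Ago1 (chr4:126468575-126468877), MBD3 was 8.62, 4.54 and 4.77 and CTCF was 34.2, 8.66, 17.3 and 17.5. The site of Atg101, a gene of autophagy initiation, had MBD3 folds of 8.03, 6.05 and 4.94. The metallopeptidase gene Amz2 had 8.05, 3.78 and 5.27, and the noncoding genes Gm32213 and Gm39360 had 7.77, 4.91 and 5.84, and 7.66, 4.38 and 5.96. Day 0 was the highest MBD3 day at all 8 promoter sites of highest day 0 fold, Slc6a19 included, which the choice by day 0 favours.

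Of 21883 protein-coding genes, 212 (0.969%) had an all-day site within 1 kb of an end, and 752 (3.44%) had a site missing on day 2 there. Among the CTCF and cohesin genes 2 of 18 did: Esco1, a cohesin acetyltransferase, with MBD3 folds of 8.88, 7.54 and 4.44 on days 0, 4 and 6, and Pds5b, a cohesin regulator, with 4.52, 5.19 and 3.78. The CTCF folds of days 0, 2, 4 and 6 were 31.5, 7.79, 22.0 and 15.5 at Esco1 and 30.4, 10.4, 17.8 and 18.4 at Pds5b. In the Hox clusters, which pattern the body axis, 3 of 39 genes did, through 2 sites. Hoxc10 had MBD3 folds of 6.07, 5.31 and 6.93, and the site shared by Hoxa5 and Hoxa6 had 2.29, 3.04 and 3.14. In the protocadherin clusters, whose alternative promoters use CTCF, 2 of 58 genes did: Pcdhga3 with MBD3 folds of 3.87, 4.32 and 4.05, and Pcdhgc3 with 4.01, 2.53 and 3.49. No gene of the other lists had such a site, namely 16 of NuRD, 12 of DNA methylation, 22 of core and naive pluripotency, 11 of formative pluripotency, 16 of neural, 18 of mesoderm and endoderm lineages, and 22 imprinted genes. All-day sites likewise lay at 2 of the 18 CTCF and cohesin genes, and at no gene of any other list, Hox and protocadherin genes included.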

How the data were processed

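ChIP-seq covered 36 samples, grouped by antibody and day from the labels, with 3 replicates per group. The submitters' processing notes name build mm10 and the tools MACS2 2.1.2, Bowtie2 2.3.4, bedtools 2.25.0, FastQC 0.11.7 and SAMtools 1.9. Libraries were amplified by PCR without molecular identifiers, per the labels' protocols. The authors deposited 8 peak lists, called on replicates 1 to 3 together, per the peak names. Each list holds the authors' fold enrichment at the summit (a ratio), and their -log10 p and -log10 q. The lists follow a q threshold of 0.05. The number of reads is not given in the sources used here. The genome-wide background, the lowest shared by 0.5% of a list, was taken as a stand-in for depth and could not be checked against read numbers. It was 1.51, 2.18, 1.93 and 1.41 fragments for MBD3 and 2.87, 2.67, 1.83 and 1.87 for CTCF on days 0, 2, 4 and 6.

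Rows with the same interval were joined. Fragments and background were recovered from fold and p (tolerance 0.1%) for at least 99.7% of each list. Shares have exact (Clopper-Pearson) 95% intervals and medians have order-statistic intervals. Sites inside and outside genes, and promoter windows, came from RefSeq tables of GRCm38.p6. The table has no strand, so windows of 1 kb around either gene end were used. Sequences were looked for at 8 promoter sites and found for 7. The sites and gene lists were chosen with earlier results of these data known.

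Sites are named by rule: the 6 of highest day 0 MBD3 fold, the 4 of highest day 2 CTCF fold, the 4 of highest day 0 MBD3 fold without day 2 CTCF, the 2 nearest each side of the threshold, up to 4 list genes per list and up to 8 promoter sites by day 0 MBD3 fold. Of the sites so named, 1 is not reported here. Other settings tried were lists cut at a -log10 q of 10, lists of equal length, CTCF on each of days 0, 4 and 6, other overlaps and windows, and, added after seeing the data, leaving out high background or pseudogenes and other scales for the day 2 limit. Python 3.11.15 was used with scipy 1.17.1, pandas 2.3.3, numpy 2.4.6 and matplotlib 3.10.9, and the overlap code was checked on simulated peaks against bedtools 2.31.1.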

Additional observations from a re-analysis of the deposited data

How the results depend on the processing

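Of 130 values under other settings, 94 stayed within the interval of the reported value or within 1.5 times the reported count, and 36 moved. With a -log10 q of 10 or more in every list, 1197 of 7223 MBD3 sites at CTCF were missing on day 2 alone. Of these 1197 sites, 99.7% had a day 2 CTCF peak. Their median MBD3 folds were 5.05, 4.35 and 4.90 on days 0, 4 and 6, their CTCF folds 15.9, 7.30, 14.9 and 16.0 on days 0, 2, 4 and 6, their summit distances 8, 9 and 6 bp, and 27.2% lay near a gene end. With lists of equal length 295 of 3382 MBD3 sites at CTCF were missing on day 2 alone. Their MBD3 folds were 5.47, 4.72 and 5.37, and their CTCF folds 17.0, 7.79, 15.2 and 17.1. Their summit distances were 7, 6 and 5 bp, and 31.5% lay near a gene end. Asking for CTCF on each of days 0, 4 and 6 gave a day 2 CTCF share of 99.8%, and windows of 5 kb put 44.2% of sites near a gene end. Without peaks of high background, an alternative added after seeing the data, 2110 sites were missing on day 2 and their day 2 CTCF share was 90.4%. Among the sites as reported, 937 had a day 2 CTCF peak over a background of more than 10 times the genome-wide level. In that setting MBD3 folds were 4.47, 4.00 and 4.70, and the CTCF folds of days 2, 4 and 6 were 6.97, 14.4 and 15.4. Of its sites 12.7% lay near a gene end. With fragments scaled by the genome-wide level, also added later, the day 0 value was above the day 2 limit at 96.5% of sites, which were chosen for a day 0 peak. The cause of these shifts was not tested, except that a stricter or shorter list holds fewer and stronger sites by construction. Leaving out peaks of high background can also lower the day 2 CTCF share by itself. No paired analysis was possible because the lists pool replicates 1 to 3, and leaving out a replicate was impossible for the same reason. At the median site, MBD3 under a fold of about 2.03 would go uncalled on day 2. The genome-wide background of the MBD3 lists, an unchecked stand-in for depth, was highest on day 2, and the part of depth in the day 2 calls was not tested.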

Other observations

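The sites missing MBD3 on day 2 were unevenly spread over the chromosomes. Among the 25409 sites with CTCF on all 4 days, they made up 11.8% over all chromosomes. The share was 16.4% on chromosome 8 (242 of 1479), 15.6% on chromosome 12, 14.3% on chromosome 11 and 8.84% on chromosome 13. On the X chromosome it was 4.40% (23 of 523, exact 95% interval 2.81 to 6.53). Of the 742 all-day sites, 7 lay on the X chromosome, which held 523 of the 25409 sites with CTCF on all 4 days. The median day 0 CTCF fold of those X sites was 9.25. It was also 9.25 on chromosome 14, where the sites missing on day 2 made up 10.3%. The number of X chromosomes in the cells is not given in the labels, and its part in these shares was not tested.

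From a site missing on day 2, the nearest other such site was a median 106424 bp away, and 372 (12.2%) had another within 10 kb. The spacing of other MBD3 or CTCF sites was not measured, so these values cannot tell whether the sites lay apart or grouped. The nearest day 2 MBD3 peak was a median 241667 bp away, and at 15 sites it lay within 1 kb. The rule allows no day 2 peak on the sites themselves, and the day 2 list was the shortest.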
